A study of Mus musculus with 2 samples.

Results

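The proteasome genes described here are the 45 genes, of 20794 in the RNA matrix, whose symbol begins with Psma, Psmb, Psmc, Psmd or Psme followed by a digit. Membership follows from the symbol. The rule took 14 genes of the constitutive 20S core, 17 genes of the 19S cap, 5 inducible genes, 3 assembly chaperones of the cap and 2 other activators. It also took 4 symbols outside these groups, given last among the levels. Psma8 and Psmb11, known from testis and thymus, are not analysed here.

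The proteasome is the protease that degrades ubiquitin-tagged proteins. Its barrel-shaped core is a stack of rings of alpha and beta subunits, and the beta subunits Psmb5, Psmb6 and Psmb7 carry the cutting sites. In lymphocytes, and in other cells exposed to interferon-gamma, Psmb8, Psmb9 and Psmb10 take the places of Psmb5, Psmb6 and Psmb7, in that order, and form the immunoproteasome. Psme1 and Psme2 form the PA28 ring, an activator that docks on the core, and the 19S cap unfolds substrates with the ATPases Psmc1 to Psmc6. Peptides made by these particles are carried by Tap1 and Tap2 to MHC class I molecules.

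The cells are GD2TIF cells, mouse T cells with a Cas9 transgene that had been activated and then infected with a retrovirus directed against Bcor and Zc3h12a, which also delivered 14g2a, a chimeric antigen receptor against the ganglioside GD2. Each C57BL/6 recipient, with an intact immune system, received 1000000 cells, and after 2 months the CD8+Thy1.1+ cells of the spleen were sorted, 1000000 in number. All cells analysed share this history. There was 1 RNA library, 1 T cell receptor (TCR) library and no other group, and how many mice stand behind them was not stated in the labels. No test between groups of cells was therefore run. Every interval is a 95% interval for counting error only, and differences between cells with different receptors cannot be told apart from differences between mice.

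After filtering, 10338 cells held 22280465 unique molecular identifiers (UMIs, each 1 captured RNA molecule), a median of 1922 UMIs per cell and a median of 977 genes. Transcripts of the edited genes were present, with Bcor at 171 and Zc3h12a at 47.4 UMIs per 1000000 (CPM), which does not check an edit of the coding sequence. All 8 T cell markers stood at 100 CPM or more. Of the genes listed for CD4 or regulatory T cells, Cd4 had 14 UMIs, Foxp3 4, Cd40lg 199 and Zbtb7b 484. Of the other marker lists, B cell genes summed to 771 CPM, most of it Ighm at 561 CPM, and 1697 cells carried 2 or more of these genes. Erythroid genes summed to 155 CPM, and dendritic, macrophage, natural killer, CD4 and neutrophil lists to between 0.0898 and 31.5 CPM. The TCR library gave 5479 barcodes, of which 4586 belonged to cells kept, and 3882 cells had exactly 1 productive TCR beta chain (TRB).

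The inducible genes were among the most abundant proteasome transcripts of these CD8 T cells. Psmb8 stood at 1387 CPM (1372 to 1403), the highest of the 45 and 100th among all genes. Among the other inducible genes, Psme1 stood at 410 CPM, Psmb9 at 405 CPM, Psme2 at 352.5 CPM and Psmb10 at 221 CPM. Summed, the 5 inducible genes reached 2775 CPM (2753 to 2797), against 3189 CPM (3166 to 3213) for the 14 core genes and 1775 CPM (1758 to 1793) for the 17 cap genes. Of the 45 genes, 25 (55.6%) stood at 100 CPM or more, against 7.98% of the 20773 genes with a UMI, and together they took 0.802% of all UMIs. Each UMI counts a molecule, so levels of different genes were compared without dividing by length, although capture can differ between transcripts.

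**Figure D1:**
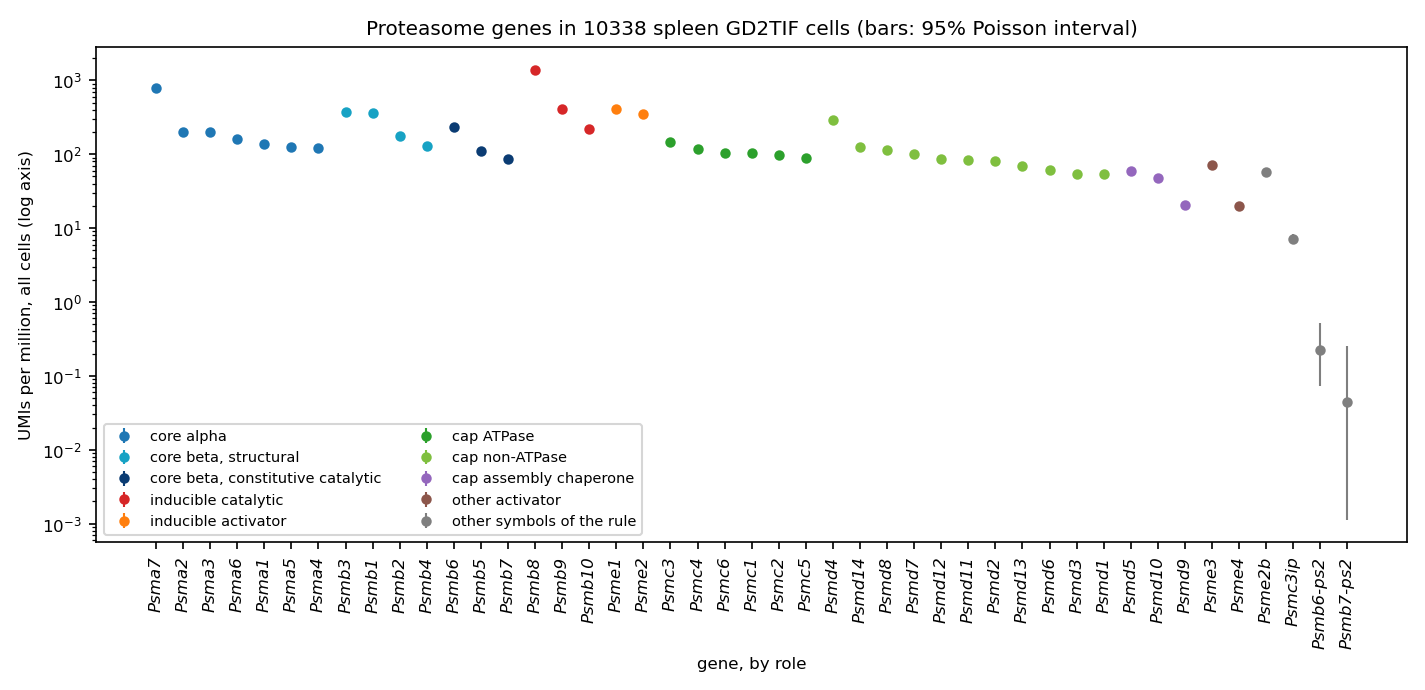
Level of each proteasome gene over 10338 cells, in UMIs per 1000000 on a log axis, ordered by role, with exact Poisson 95% intervals that are mostly smaller than the points. Psmb8 is highest at 1387, core alpha and beta genes lie between 87.0 and 778.5, and cap genes between 53.5 and 288.

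Among the 7 alpha genes, which form the outer rings and the gate, Psma7 stood apart at 778.5 CPM, while the other 6 lay between 122 CPM (Psma4) and 201 CPM (Psma2 and Psma3). The structural beta genes, which have no cutting site, were led by Psmb3 at 374 CPM and Psmb1 at 358 CPM, with Psmb2 at 178 CPM and Psmb4 at 131 CPM. The catalytic beta genes of the constitutive core were lower, with Psmb6 at 232 CPM, Psmb5 at 109 CPM and Psmb7 at 87.0 CPM. Transcript levels within the core spanned 8.95-fold.

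The 17 cap genes spanned 5.38-fold. Among them the 6 ATPases were more even and spanned 1.65-fold, from Psmc5 at 89.3 CPM to Psmc3 at 147 CPM. Of the 11 other cap genes, the ubiquitin receptor Psmd4 was highest at 288 CPM. The deubiquitinase Psmd14 stood at 124 CPM and Psmd8 at 113 CPM, while the scaffold genes Psmd1 and Psmd2 stood at 53.5 and 81.9 CPM. The remaining 6 lay between Psmd3 at 53.9 CPM and Psmd7 at 99.9 CPM. The assembly chaperones Psmd5, Psmd10 and Psmd9 were at 58.9, 47.6 and 20.2 CPM. Of the other activators, Psme3 (PA28 gamma, a nuclear activator) was at 71.8 CPM and Psme4 (PA200) at 19.9 CPM.

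The 4 further symbols were low. Psme2b, a close copy of Psme2 on another chromosome, had 57.5 CPM. Its reads may not be separable from those of Psme2, and its locus overlaps 9930111J21Rik1. Psmc3ip, a recombination cofactor named for its binding to Psmc3 and no proteasome subunit, had 7.23 CPM. The pseudogenes Psmb6-ps2 and Psmb7-ps2 had 5 UMIs and 1 UMI over all cells. In RefSeq, 14 of the 45 loci overlap another annotated gene, among them Psme1 with Emc9, so their reads may be shared where the counting did not use strand.

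The catalytic pairs were weighted toward the inducible partner, most of all at the Psmb5 site. Over all cells Psmb8 made up 92.7% (92.4 to 93.0%) of the UMIs of Psmb8 and Psmb5. Psmb10 made up 71.8% (70.7 to 72.8%) of Psmb10 and Psmb7, and Psmb9 made up 63.6% (62.8 to 64.4%) of Psmb9 and Psmb6. With the pairs pooled, the inducible genes held 82.5% (82.1 to 82.8%, exact binomial). These are shares of transcripts, and no protein was measured.

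Psmb8 and Psmb9 lie together in the MHC region, in GRCm38 on chromosome 17. Psmb9 is transcribed on the minus strand from position 34187330 and Tap1 on the plus strand from 34187556, so 225 bases between the starts are upstream of both. Psmb8 starts at 34198195 on the plus strand. RefSeq upstream windows (GRCm38.p6) were matched for 37 of the 45 genes, with 40 windows. Of the 5 motifs searched on both strands in the 250 bases upstream, a full interferon-gamma activated site (GAS, TTCNNNGAA) was found in 1 member window, that of Psmb8. The same letters occur in 7.02% of 32851 windows. The antioxidant element TGACNNNGC, the kind of site read by Nfe2l1 and Nfe2l2, was found in 5 member windows, those of Psmb5, Psmb6, Psmc6, Psmd12 and Psmd9, and in 10.2% of all windows. A CCAAT box was found in 14 member windows, Psmb9 included, and in 33.8% of all. The ISRE core GAAANNGAA was found in those of Psmb3, Psmd4 and Psmd9, and in 7.13% of all, and the cyclic AMP element TGACGTCA in none, against 1.55% of all. Windows follow the start in the RefSeq promoter table. For Psmb6 that start lies inside the annotated locus, and so does its match. The upstream sequences of Psmb8 and Psmb5 are shown because these partners held different matches, and that of Psmb9 because it is shared with Tap1. They read 5′ to 3′ on the gene's strand and end at the base before the start, and capitals mark a GAS in Psmb8, a reverse CCAAT box in Psmb9 and the antioxidant element in Psmb5. The regions are chr17:34197945-34198194 on the plus strand for Psmb8, chr17:34187331-34187555 on the minus strand for Psmb9 and chr14:54617996-54618245 on the minus strand for Psmb5. A match is a description of letters and not a binding site.
Psmb8: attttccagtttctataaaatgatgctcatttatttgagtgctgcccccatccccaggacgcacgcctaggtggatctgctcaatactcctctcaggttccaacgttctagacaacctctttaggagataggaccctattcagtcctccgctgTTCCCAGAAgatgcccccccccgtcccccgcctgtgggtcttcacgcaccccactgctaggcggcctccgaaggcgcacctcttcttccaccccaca
Psmb9: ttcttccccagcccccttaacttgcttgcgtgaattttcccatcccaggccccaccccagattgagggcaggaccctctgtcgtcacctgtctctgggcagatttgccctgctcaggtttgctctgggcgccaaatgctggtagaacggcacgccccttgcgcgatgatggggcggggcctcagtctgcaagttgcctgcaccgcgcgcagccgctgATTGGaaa
Psmb5: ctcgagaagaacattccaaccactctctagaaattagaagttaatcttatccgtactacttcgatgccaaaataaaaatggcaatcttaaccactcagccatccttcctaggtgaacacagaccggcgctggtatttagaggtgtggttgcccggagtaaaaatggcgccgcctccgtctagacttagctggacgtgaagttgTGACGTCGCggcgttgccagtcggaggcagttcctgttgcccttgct

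The cells with 1 TRB were grouped by the nucleotide sequence of its hypervariable CDR3 loop, so that each group, called a family here, shares a receptor beta chain. There were 12 families of at least 50 cells, which held 2614 cells (67.3% of those with 1 TRB). They are numbered by size, from family 1 (TRBV15 with TRBJ1-1, 882 cells) and family 2 (TRBV12-2 and TRBV13-2 called together, with TRBJ2-3, 600 cells) down to family 12 (50 cells). Family 3 (TRBV17 with TRBJ1-1) had 200 cells, family 7 (TRBV17 with TRBJ2-7) 100 cells and family 8 (TRBV14 with TRBJ1-4) 93 cells. Their median depth ran from 1732.5 to 2622 UMIs per cell. Each family was set against all other cells with 1 TRB, so the reference is largely shared between families.

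The inducible genes differed between families more than the core and cap genes did. Their summed level ran from 2212 CPM in family 8 to 4341 CPM in family 3, a span of 1.96-fold, with a median of 2634 CPM. The core sum spanned 1.28-fold (2876 to 3675 CPM) and the cap sum 1.33-fold (1525 to 2035 CPM). Against the other cells with 1 TRB, the inducible sum was 1.56-fold (1.49 to 1.63) in family 3, 1.52-fold (1.42 to 1.62) in family 7 and 1.23-fold (1.19 to 1.27) in family 2. The intervals of families 3 and 7 overlapped each other and lay above those of the other 10.

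Family 2 in turn lay above the other 9 families. Family 6 was at 1.02-fold (0.942 to 1.10), with an interval that includes 1. The remaining 8 families lay below 1, from 0.941-fold (0.888 to 0.997) in family 4 to 0.796-fold (0.691 to 0.911) in family 12 and 0.767-fold (0.700 to 0.838) in family 8. Because families 2, 3 and 7 are themselves in the reference of the others, values slightly below 1 depend on it. Without those 3 in the reference, family 1 moved from 0.914-fold to 1.05-fold and family 4 from 0.941-fold to 1.05-fold.

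**Figure D2:**
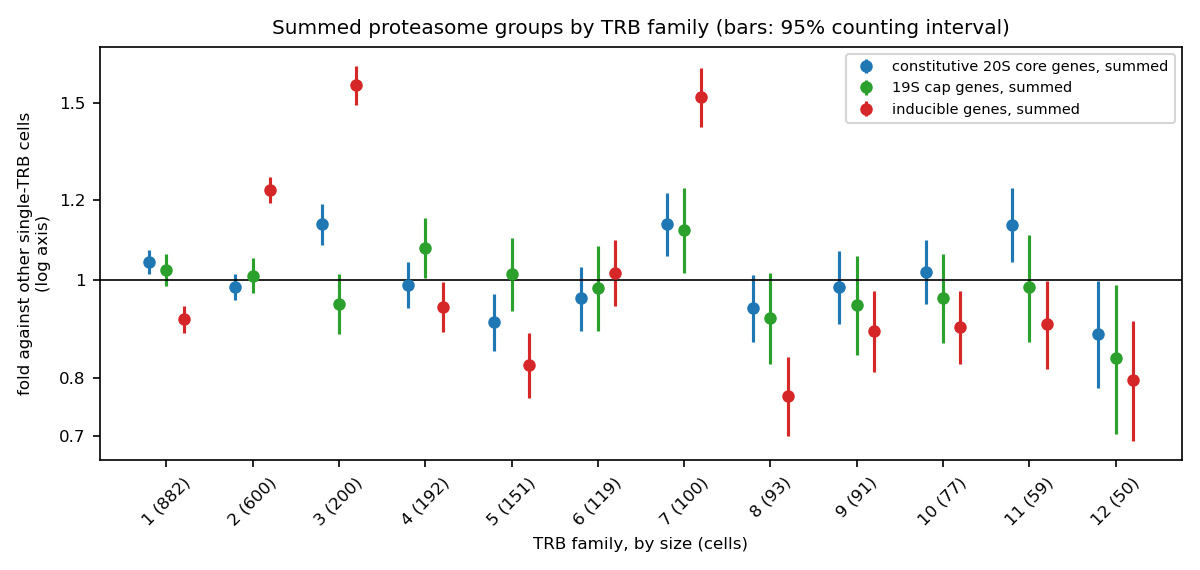
Fold of the summed core, cap and inducible genes in each TRB family against all other cells with 1 TRB, on a log axis, with exact 95% counting intervals and cell numbers in brackets. Inducible sums stand at 1.56 in family 3, 1.52 in family 7 and 1.23 in family 2, while core and cap sums lie between 0.836 and 1.14 in all 12.

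The activator genes varied somewhat more than the inducible catalytic genes. Psme1 and Psme2 together spanned 2.36-fold over the families, from 571 to 1350 CPM, and the 3 catalytic genes spanned 1.94-fold, from 1590 to 3088 CPM. In family 3 the activator sum was 1.80-fold (1.66 to 1.95) and the catalytic sum 1.47-fold (1.39 to 1.55). In family 7 they were at 1.58-fold (1.39 to 1.79) and 1.498-fold (1.38 to 1.62), with intervals that overlap. In family 2 the order was the other way, at 1.15-fold (1.09 to 1.22) for the activator and 1.26-fold (1.22 to 1.30) for the catalytic genes.

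Psmb8 had its lowest level in family 12 at 1165 CPM, a median of 1354 CPM and its highest level in family 7 at 2078 CPM. It was 1.47-fold (1.34 to 1.62) in family 7, 1.45-fold (1.35 to 1.54) in family 3 and 1.22-fold (1.16 to 1.27) in family 2. Family 6 also had a high Psmb8 level, at 1671 CPM and 1.18-fold (1.06 to 1.30). Psmb8 was past 1.5-fold in no family.

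Psmb9 ran from 220 CPM in family 8 through a median of 378 CPM to 683 CPM in family 7, a span of 3.10-fold. It was 1.64-fold (1.37 to 1.93) in family 7 and 1.49-fold (1.32 to 1.68) in family 3, and 0.513-fold (0.379 to 0.680) in family 8, where it rested on 49 UMIs. Family 1 differed from the other families below 1 in the inducible sum: its Psmb9 was at 466 CPM and 1.13-fold (1.05 to 1.22), while its Psmb10, Psme1 and Psme2 were at 0.758-fold, 0.846-fold and 0.830-fold.

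Psmb10 did not follow the same order. It ran from 117 CPM in family 10 through a median of 207 CPM to 365 CPM in family 3. It was 1.60-fold in family 3 (1.37 to 1.86) and in family 2 (1.45 to 1.76), where it was the only inducible gene past 1.5-fold, and 1.40-fold (1.08 to 1.78) in family 7. It was at 0.488-fold (0.318 to 0.717) in family 10 and 0.647-fold (0.504 to 0.820) in family 4, families in which Psmb8 stood at 0.983-fold and 0.959-fold. In family 9 Psmb10 was above 1, at 1.17-fold (0.867 to 1.55), and Psmb8 below it, at 0.834-fold (0.726 to 0.954).

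Psme2 ran from 234 CPM in family 8 through a median of 316 CPM to 651 CPM in family 3 and 630 CPM in family 7. It was 1.90-fold (1.69 to 2.13) in family 3 and 1.78-fold (1.48 to 2.12) in family 7, but 1.10-fold (1.00 to 1.20) in family 2. Psme1, its partner in the ring, ran from 305 CPM in family 12 to 699 CPM in family 3, where it was 1.72-fold (1.54 to 1.93). In family 7 Psme1 was 1.40-fold (1.16 to 1.68). Psme2b was 1.91-fold (1.39 to 2.56) in family 3, on 50 UMIs, next to Psme2 in size.

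**Figure D3:**
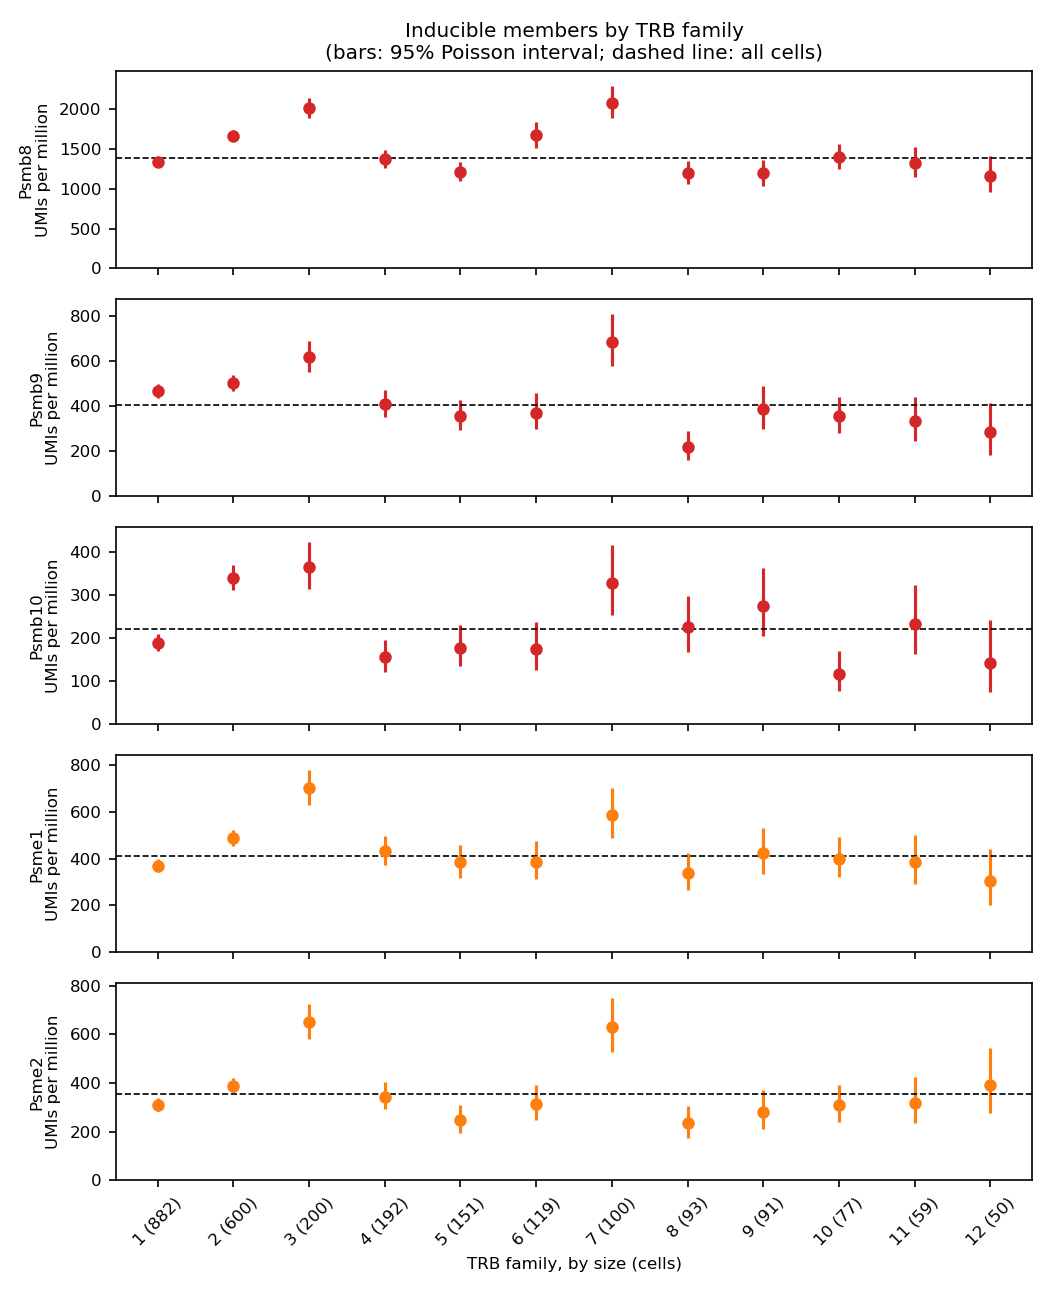
Level of Psmb8, Psmb9, Psmb10, Psme1 and Psme2 in each TRB family, in UMIs per 1000000, with exact Poisson 95% intervals, cell numbers in brackets and a dashed line at the level over all cells. Families 2, 3 and 7 lie above the line for all 5 genes, and Psmb9 in family 8 is lowest at 220.

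The inducible share of the catalytic pairs, pooled, ran from 78.2% (74.0 to 82.0%) in family 9 to 87.7% (86.1 to 89.2%) in family 3 and 87.8% (85.2 to 90.1%) in family 7. The share did not follow the inducible level in every family: it was 85.1% (81.7 to 88.2%) in family 10, where the catalytic sum was 0.896-fold (0.811 to 0.987), and 84.7% (83.7 to 85.7%) in family 2, where that sum was 1.26-fold (1.22 to 1.30). In family 7 Psmb5 stood at 57.7 CPM, on 12 UMIs, and 0.516-fold (0.265 to 0.905), so that Psmb8 held 97.3% (95.3 to 98.6%) of that pair. In family 8 Psmb9 held 49.0% (38.9 to 59.2%) of its pair with Psmb6, the lowest share of the 12, and the Psmb6 level there, 229 CPM, was close to the median of the families. The Psmb10 share ran from 61.7% (52.2 to 70.7%) in family 4 to 82.7% (77.1 to 87.5%) in family 3.

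**Figure D4:**
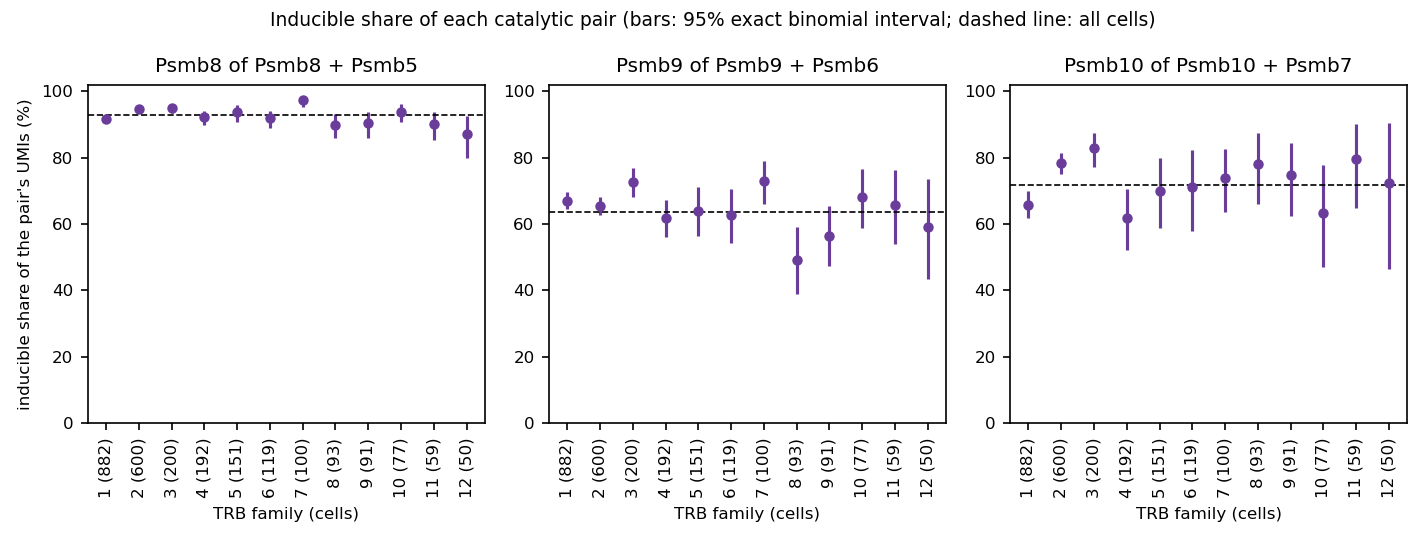
Share of each catalytic pair's UMIs held by the inducible gene, in percent, in each TRB family, with exact binomial 95% intervals, cell numbers in brackets and a dashed line at the share over all cells. Psmb8 lies between 87.0 and 97.3% in every family, and Psmb9 falls to 49.0% in family 8.

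A gene was counted as past 1.5-fold in a family when its fold was at least 1.5 or at most 0.667 and at least 20 UMIs were expected there. Between 10 (family 12) and 42 (families 1 and 2) of the 45 genes met that minimum. Over the 12 families the proteasome genes gave 31 such values among 367 (8.45%), 13 higher and 18 lower, against 11.2% of 36843 values over all genes. The inducible genes gave 12 of 60 (20%), and the core and cap genes 16 of 286 (5.59%). The count over all proteasome genes was thus below the share for all genes, and that of the inducible genes above it. The genes compared were not matched for level, on which the counting error of a fold depends.

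In family 3, 5 of 40 proteasome genes were higher, against 3.23% of all genes: Psme1, Psme2, Psme2b, Psmb10 and Psmb2, the last a structural core gene at 1.51-fold (1.252 to 1.81). Only Psmd10 was lower, at 0.657-fold (0.372 to 1.08) on 16 UMIs, against 8.86% of all genes lower and 12.1% in either direction. The cap genes Psmd1 and Psmc6 were next lowest, at 0.728-fold and 0.760-fold. In this family 11 cells carrying effector markers held 12.4% of the UMIs, with a median of 5318 UMIs against 2078 in the others. Without them the inducible sum was 1.47-fold, with Psme2 at 1.78-fold, Psme1 at 1.68-fold and Psmb10 at 1.64-fold. Psmb9 was then at 1.37-fold (1.20 to 1.56) and Psmb8 at 1.33-fold (1.24 to 1.43). Psmb2 was at 1.41-fold, and the core sum moved from 1.14-fold (1.08 to 1.19) to 1.07-fold. Psmd10 was then at 0.467-fold (0.222 to 0.867), Psmd1 at 0.624-fold (0.346 to 1.04) and Psmc6 at 0.627-fold (0.423 to 0.896).

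In family 7, 4 of 28 genes were higher, against 4.04% of all genes: Psme2, Psmb9 and the alpha genes Psma4 at 1.56-fold (1.11 to 2.14) and Psma2 at 1.52-fold (1.16 to 1.96). Psmb5 was the 1 lower gene, against 5.43% of all genes lower and 9.47% in either direction, followed by Psma3 at 0.746-fold and Psmc6 at 0.858-fold. In family 2, 1 of 42 genes, Psmb10, was higher, against 3.63% of all genes, and no proteasome gene was lower, against 8.99% (12.6% in either direction). The highest after Psmb10 were Psme2b at 1.39-fold and Psmd5 at 1.33-fold, and the lowest were Psma1 at 0.726-fold, Psmc1 at 0.727-fold and Psme4 at 0.746-fold.

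In family 8, 4 of 29 genes were past 1.5-fold, all lower, against 13.2% of all genes: Psmb9, Psme2 at 0.643-fold (0.479 to 0.846), and the ATPases Psmc2 at 0.579-fold (0.307 to 0.995) and Psmc5 at 0.597-fold (0.316 to 1.03). The ATPase values rest on 13 UMIs each. In family 10, 3 of 29 genes were lower, against 14% of all genes in either direction: Psmb10, Psmc2 at 0.577-fold and Psmd4 at 0.659-fold. In family 12, 3 of 10 genes were lower, against 10.1%: Psmd4 at 0.548-fold (0.306 to 0.905), Psmb10 at 0.598-fold and Psmb9 at 0.666-fold.

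In each of the remaining families 3 or fewer genes were past the fold, among them core, cap, inducible and chaperone genes. Family 11 had 3 of 17, against 13.7% of all genes, with Psma6 at 1.95-fold (1.43 to 2.61), Psmb2 at 1.83-fold (1.34 to 2.43) and Psmb4 at 0.491-fold on 10 UMIs. Its core sum was 1.13-fold (1.04 to 1.23). Family 9 had 2 of 24 (10.3% of all genes), Psma6 at 0.569-fold and Psmc3 at 0.663-fold, and family 4 had 2 of 40 (7.95%), Psmb10 and the ATPase Psmc4 at 1.54-fold (1.21 to 1.93). Family 6 had 1 of 31 (11.3%), Psma4 at 0.627-fold, and family 1 had 1 of 42 (10.8%), the chaperone Psmd9 at 0.650-fold. Family 5 had 0 of 35 (9.01%), and its lowest was Psme2 at 0.678-fold (0.535 to 0.849).

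Genes of the interferon-gamma response, from a list that holds no proteasome gene, were high in the same 3 families. The list was chosen with earlier results of these data known, so it is not independent of them. Its sum was also 2.21-fold in the cells with type I interferon response markers described below. The 16 genes summed to 3053 CPM in family 3, 2598 CPM in family 7 and 2091 CPM in family 2, with a median of 955 CPM over the 12 families. Their sum was 2.52-fold (2.39 to 2.66), 2.02-fold (1.85 to 2.21) and 1.84-fold (1.76 to 1.91), and 1.23-fold (1.08 to 1.40) in family 11, whose inducible sum was 0.904-fold. In family 3, 9 of the 11 genes counted were higher, with a median of 2.36-fold against 0.978-fold over all genes. In family 7, 7 of 8 were higher, with a median of 1.84-fold against 0.985-fold, and in family 2, 11 of 15, with a median of 1.98-fold against 0.978-fold. In family 1, 11 of 16 were lower, against 386 of 7969 over all genes. This was not particular to family 1. Lower were 6 of 10 in family 4 (208 of 3725 over all genes) and 5 of 9 in family 5 (196 of 2696). In family 6 it was 3 of 8 (140 of 2028), in family 8 4 of 8 (195 of 1876) and in family 10 4 of 8 (181 of 1880). None was lower in families 9 and 11. Families 2, 3 and 7 are in the reference of all these families.

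Irf1, a transcription factor which acts on MHC class I and immunoproteasome promoters, was at 2.73-fold (2.33 to 3.18) in family 3, 1.74-fold (1.30 to 2.28) in family 7 and 1.53-fold (1.35 to 1.73) in family 2. Tgtp2, an interferon-induced GTPase, had its highest fold in family 2, at 3.46-fold (3.02 to 3.98). Its highest level was in family 7, at 231 CPM, and the cells of family 2 are in the reference of family 7. Family 3 held the highest fold of Igtp, at 4.34-fold (3.69 to 5.08). The interferon GTPases thus reached larger folds than any inducible proteasome gene, the highest of which was Psme2 at 1.90-fold.

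Over the 12 families the inducible sum had Pearson's r of 0.933 with the interferon-gamma response sum (Spearman's rho 0.650), and r of 0.732 without families 3 and 7, the farthest from the median. With Irf1 the values were 0.887, 0.678 and 0.636. With the core sum the values were 0.702, 0.678 and 0.297, and with the cap sum 0.462, 0.524 and 0.512. The r with the core sum thus fell without families 3 and 7. Its rho was not below that with the interferon-gamma response sum, and no rho was computed without these families. These are descriptions over 12 families of 1 library with unequal cell numbers, whose levels share a denominator of all UMIs.

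**Figure D5:**
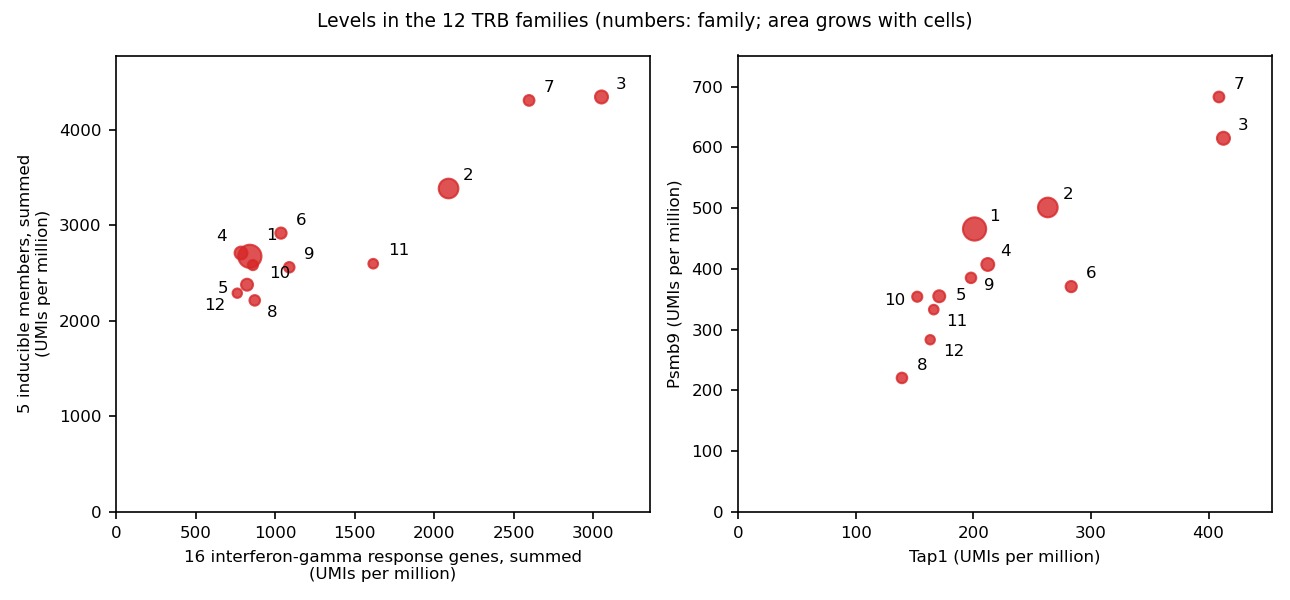
Left, summed level of the 5 inducible genes against the summed level of 16 interferon-gamma response genes. Right, level of Psmb9 against that of Tap1. Axes are in UMIs per 1000000, each point is a TRB family, numbered by size, and point area grows with its cells. Families 3 and 7 are highest on both axes of the left plot, followed by family 2, and family 8 is lowest on both axes of the right plot.

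Psmb9 and Tap1, which share the stretch of upstream sequence shown above, had r of 0.905 and rho of 0.895 over the families, and r of 0.678 without families 3 and 7. Tap1 ran from 139 CPM in family 8, where Psmb9 was also lowest, to 413 CPM in family 3 and 409 CPM in family 7. Family 6 was apart from that order, with Tap1 at 283 CPM, above all but families 3 and 7, and Psmb9 at 371 CPM, just below its median. Psmb8 and Tap1 had r of 0.956 and rho of 0.769, with r of 0.838 without families 3 and 7. Psmb10 and Tap1 had r of 0.722 and rho of 0.545, with r of 0.593 without families 2 and 3.

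Among themselves, Psmb8 and Psmb9 had r of 0.878 and rho of 0.727, Psmb9 and Psmb10 0.699 and 0.587, and Psmb8 and Psmb10 0.666 and 0.350. Without families 3 and 7 the r of these pairs was 0.594, 0.377 and 0.253. Psme1 and Psme2 had r of 0.869 and rho of 0.545, with r of 0.227 once families 3 and 7 were left out. The catalytic and activator sums had r of 0.932 and rho of 0.748, with r of 0.767 without those families.

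The summed class I presentation genes spanned 1.52-fold over the families, while Tap1 spanned 2.96-fold and Tap2 2.55-fold. The 11 genes summed to 1.17-fold (1.15 to 1.20) in family 3, 1.16-fold (1.13 to 1.20) in family 7, 1.13-fold (1.12 to 1.14) in family 2 and 0.758-fold (0.731 to 0.786) in family 8. Of 11 genes counted in family 3, Tap1 at 1.96-fold (1.69 to 2.26) and Tap2 at 1.53-fold (1.28 to 1.82) were higher and none lower, and of 10 in family 7 only Tap1, at 1.88-fold (1.49 to 2.33). In family 8, Tap1 and Tap2 were lower, at 0.621-fold and 0.577-fold. B2m, the light chain of class I, was at 1.16-fold in family 3 and 1.17-fold in family 7. Nlrc5, the activator of class I genes, was at 0.811-fold (0.575 to 1.11) in family 3 and 1.14-fold (0.716 to 1.72) in family 7, with intervals that include 1.

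Proteasome partners, the 15 measured of 17 listed chaperones, receptors and regulators, summed to 1155 CPM over all cells and to between 0.833-fold and 1.15-fold in the families. Sem1, a small cap subunit, was highest at 369 CPM, and Pomp, the chaperone that builds the core, stood at 201 CPM. Pomp was at 1.21-fold (0.996 to 1.46) in family 3 and 0.989-fold (0.707 to 1.35) in family 7. None of the partners counted was higher in family 3 (10 genes) or family 7 (2 genes), and 1 was lower in family 3, Nfe2l2 at 0.399-fold (0.181 to 0.766) on 9 UMIs. In family 1, Ngly1, which processes Nfe2l1, was at 2.48-fold (2.10 to 2.94) and Ddi2, the protease that cleaves Nfe2l1, at 1.82-fold (1.46 to 2.25), while Nfe2l1 was at 1.21-fold (0.987 to 1.48). The core sum of that family was 1.04-fold (1.01 to 1.07) and its cap sum 1.02-fold (0.986 to 1.06). Ngly1 was at 0.362-fold (0.260 to 0.493) in family 2, where the core sum was 0.984-fold (0.955 to 1.01).

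The 13 measured of 14 listed ubiquitin and shuttle genes summed to 9242 CPM, led by Ubb at 4482 CPM and Rps27a at 2476 CPM. In the families their sum lay between 0.891-fold (family 7) and 1.10-fold (family 11). Ubb itself spanned 1.18-fold over the 12 families. Of 11 counted in family 3 and 6 in family 7, none was past 1.5-fold.

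Values that moved beside the family differences are these. The median mitochondrial share was lowest in the 3 families with the highest inducible sums, at 2.98% in family 3, 3.13% in family 7 and 3.16% in family 2, against 3.33 to 3.99% in the other 9, and its part in the result was not tested. Median depth did not order the families in that way, with 2130, 1839 and 2530 UMIs. The share of cells with type I interferon response markers, described below, was also highest in these 3 families. It was 5% in family 3, 4% in family 7 and 7.83% in family 2, against 0 to 3.9% in the other 9. Family 7, on 4 cells, was close to family 10 at 3.9%, on 3 cells. B cell markers summed to 489 and 491 CPM in families 3 and 7, inside the span of 148 to 773 CPM over the 12. Cells with 2 or more of these markers made up 8.5% of family 3 and 10% of family 7, inside the span of 5.19 to 25.8%. Cd79a had 0 UMIs in both, as in most of the 12 families. Without the cells that carried 2 or more B cell, dendritic or macrophage markers, the inducible sum was 1.58-fold in family 3 and 1.52-fold in family 7. Cells of 1500 to 3000 UMIs gave 1.39-fold in family 3, where the core sum was then 1.01-fold, and 1.55-fold in family 7.

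Cells picked by 2 or more other markers had smaller folds of the inducible sum than families 3 and 7 over all depths. Their reference was all other cells, and not only those with 1 TRB. The order depended on the setting: effector-marked cells with 3 or more markers were at 1.40-fold, and family 3 in cells of 1500 to 3000 UMIs at 1.39-fold. The 307 cells with 2 or more type I interferon response markers had an inducible sum of 1.26-fold (1.22 to 1.31) against all other cells, a core sum of 1.04-fold (1.00 to 1.07) and a cap sum of 1.01-fold (0.963 to 1.06). Psme2 was at 1.38-fold (1.248 to 1.52), Psmb10 at 1.34-fold, Psmb9 at 1.33-fold, Psmb8 at 1.23-fold and Psme1 at 1.19-fold, and the structural core gene Psmb2 at 0.760-fold (0.631 to 0.907). None of 40 proteasome genes was past 1.5-fold, against 5.78% of all genes. The interferon-gamma response sum was 2.21-fold in these cells. Of the 307 cells, 61 belonged to families 2, 3 or 7, with 47 in family 2, 10 in family 3 and 4 in family 7. Without marked cells the inducible sum was 1.22-fold in family 2, 1.57-fold in family 3 and 1.52-fold in family 7. This left out only 10 of 200 cells in family 3 and 4 of 100 in family 7, so the sums of these families could change little.

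The 300 cells with 2 or more effector markers had an inducible sum of 1.24-fold (1.19 to 1.29), a core sum of 1.11-fold (1.07 to 1.15) and a cap sum of 1.00-fold (0.947 to 1.06). The highest proteasome genes were Psmc6 at 1.36-fold, Psmd11 at 1.32-fold and Psmd1 at 1.31-fold. Psme2 was also at 1.31-fold, Psmb8 at 1.27-fold, Psmb9 at 1.26-fold, Psmb10 at 1.251-fold and Psme1 at 1.05-fold. None of 40 was past 1.5-fold, against 14.9% of all genes.

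In the 86 cells with 2 or more cycling markers the 3 groups were higher by similar amounts. The core sum was 1.19-fold (1.13 to 1.26), the cap sum 1.18-fold (1.09 to 1.27) and the inducible sum 1.16-fold (1.09 to 1.23). Within the last, Psme1 and Psme2 together were at 1.32-fold (1.18 to 1.46) and the catalytic genes at 1.10-fold (1.02 to 1.18). Of 36 proteasome genes, 2 were past 1.5-fold, against 14% of all genes: the cap gene Psmd6 at 1.55-fold (1.06 to 2.19) and Psma4 at 1.51-fold (1.16 to 1.94). Psme2 was at 1.49-fold (1.28 to 1.72), Psmb9 at 1.37-fold, Psme1 at 1.17-fold, Psmb8 at 1.04-fold and Psmb10 at 0.967-fold. Marked cells of each kind were deeper than the others, with medians of 2613 against 1903 UMIs for interferon, 2210.5 against 1913 for effector and 3066.5 against 1915 for cycling markers. With each cell thinned to 1000 UMIs, the inducible sum was 1.31-fold in interferon-marked, 1.19-fold in effector-marked and 1.12-fold in cycling-marked cells.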

How the data were processed

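The members and gene lists were chosen with earlier results of these data known. The authors deposited raw, unnormalized UMI counts for each gene and barcode, and the TCR contig table holds UMI counts per contig as deposited. Per the submitters' processing notes, the build was GRCm38 and the tools included STAR 2.6.1a, featureCounts 2.0.1 and cutadapt 1.17, without roles, and no strand setting is named. Of 10387 barcodes, 4 under 200 genes and 47 with 20% or more mitochondrial UMIs were left out (49 in all). Doublets were treated as present, and 244 cells with 2 or more TRB were left out of families. Counts were summed over cells and divided by all UMIs (CPM). Sums have exact Poisson, ratios exact conditional and shares exact Clopper-Pearson 95% intervals, which cover counting error only. A count of 3 over all cells is 0.135 CPM. Marked cells carry at least 2 different markers of a list. Members and listed genes could be named, and per comparison the inducible genes, those past 1.5-fold and the 3 highest and 3 lowest. The listed symbols Shfm1, Ecpas and Ufd1l were not analysed here. 1 gene of the interferon-gamma response list enters its sums and counts but is not named. Python 3.11.15, numpy 2.4.6, scipy 1.17.1, pandas 2.3.3 and matplotlib 3.10.9 were used. Alternatives changed the cell filter, denominator, reference, depth, family definition, marker number and fold.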

Additional observations from a re-analysis of the deposited data

How the results depend on the processing

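All values come from 1 library, so no alternative speaks to the spread between mice. Summed over all cells, core, cap and inducible genes were at 3095, 1734 and 2680.5 CPM as a mean over cells, and at 4380, 2438 and 3812 CPM with ribosomal, mitochondrial, Gm42418 and Malat1 UMIs taken out of the total. The 31 of 367 family values past 1.5-fold became 102 of 367 at a fold 25% above 1 or its inverse, 48 of 460 with at least 10 expected UMIs and 13 of 199 with at least 50. The share of all genes past these settings was not computed. The inducible sum stayed within its interval in 102 of 120 alternatives over the families, core in 111 of 120 and cap in 117 of 120. The inducible sum of family 2 was 1.18-fold with families weighted equally. In family 3 it was 1.47-fold without effector-marked cells and 1.39-fold in cells of 1500 to 3000 UMIs. With families 2, 3 and 7 taken out of the reference, the sum was 1.31-fold in family 2, 1.68-fold in family 3 and 1.67-fold in family 7, and 4 families crossed 1: family 1 at 1.05-fold, family 4 at 1.05-fold, family 10 at 1.00-fold and family 11 at 1.01-fold. Thinned to 1000 UMIs per cell, which left out 882 cells, family 4 was at 1.01-fold. That reference, the depth window and the leaving out of marked cells were chosen after seeing the data. With 3 or more markers, interferon-marked cells had a core sum of 0.976-fold and an inducible sum of 1.35-fold, effector-marked cells a cap sum of 1.09-fold and an inducible sum of 1.40-fold, and cycling-marked cells core, cap and inducible sums of 1.41-fold, 1.51-fold and 1.2502-fold. Thinned, the core sum was 1.06-fold in effector-marked and 1.12-fold in cycling-marked cells. Without ribosomal, mitochondrial, Gm42418 and Malat1 UMIs, effector-marked cells had core, cap and inducible sums of 1.05-fold, 0.945-fold and 1.17-fold. The cause of these shifts was not tested. No paired analysis was possible because there is 1 RNA library. Below 20 expected UMIs, as for most cap genes in family 12, no fold was counted.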

Other observations

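In cells with 1 TRB, the inducible sum was 3017 CPM (2974 to 3061) over the 2614 family cells and 2521 CPM (2461 to 2582) over the 1268 others. The family value includes families 2, 3 and 7, and families 5, 8 and 12, at 2376, 2212 and 2287 CPM, were below the cells outside families. The core sum was 3292 CPM (3247 to 3337) in family cells and 3139 CPM (3072 to 3208) in the others, and the cap sum was 1828 CPM (1794 to 1862) and 1802 CPM (1751 to 1854). In the 6456 cells with no TRB contig or with several, the inducible sum was 2714 CPM. Families 3 and 7 both use TRBV17. The 32 other TRBV17 cells, which carry 23 different TRB, were set against 3550 other cells with 1 TRB. Unlike in the family folds, families 3 and 7 were left out of this reference. The inducible sum of the 32 cells was 0.902-fold (0.765 to 1.06) and their interferon-gamma response sum 0.950-fold (0.740 to 1.20). This comparison was chosen after the values of both families had been seen.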
